A study of Mus musculus with 9 samples.

Results

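Immune checkpoint ligands and receptors were followed across EPZFTA-RELA tumors and control brains through 10 genes, namely Cd274, Pdcd1lg2, Pdcd1, Ctla4, Cd80, Cd86, Lag3, Havcr2, Tigit and Vsir. They were chosen by symbol and are 10 of the 32289 features that were counted. Droplet-based 5′ single-cell RNA-seq was performed on brain tissue of 9 mice aged 6 to 8 weeks. The 5 tumor-bearing mice carried the genotype NestinCreERT2;Fus1, in which a conditional ZFTA-RELA fusion allele with an IRES and luciferase is switched on by a tamoxifen-dependent Cre under Nestin control, a driver active in radial glia of the embryo. The 4 control mice carried NestinCreERT2;TdT, so both groups carry the Cre transgene. The sample labels name TdT for controls only, while the supplement of the study also describes a TdTomato signal in tumor-bearing mice. The tissue was dissociated, spun through Percoll and sorted after staining with DAPI and an antibody to the red-cell antigen Ter119. The methods of the study also name an antibody to the leukocyte antigen CD45 and an intravenous CD45 label for its single-cell samples, and the gate used for these libraries was not given in the sources used here. Shares of immune cells can depend on such a gate, and its part in them was not tested. The labels give each library as a separate sample, and p-values measure the spread between those samples.

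Checkpoint genes encode surface proteins that restrain or tune immune responses. The ligands PD-L1 (Cd274) and PD-L2 (Pdcd1lg2) bind PD-1 (Pdcd1), and the B7 proteins CD80 and CD86 bind the inhibitory receptor CTLA-4 as well as the activating receptor CD28. LAG-3, TIM-3 (Havcr2) and TIGIT are best known on T cells and NK cells, whereas VISTA (Vsir) and TIM-3 are also abundant on microglia and other myeloid cells.

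A count is a unique molecular identifier (UMI), which stands for 1 captured transcript, and levels are given as CPM, the UMIs of a gene scaled to a common library total. The libraries held 14967680 to 178086164 UMIs, and 1577 to 5907 cells per mouse were kept, 19568 from controls and 15745 from tumors. Fusion UMIs, counted over all barcodes, were 0 in control mice 1 to 3 and 20, 363, 12, 1152 and 670 in tumor mice 1 to 5. The feature list of control mouse 4 did not name the fusion. Tumor mice 1 and 3 therefore held few fusion UMIs. Libraries shared at most 2.56% of the barcodes of the smaller library. Control cells were mostly neurons, which made up 68.9 to 80.2% of kept cells against 0 to 24.6% in tumors.

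Promoter sequences from RefSeq on GRCm38.p6 were found for 8 of the 10 genes, all but Cd86 and Lag3. Windows from 250 bases before to 50 bases after the start were searched on both strands for GAGGAAGT, a site of the myeloid factor PU.1, for GAAANNGAA, a core of the interferon-stimulated response element, for TTCNNNGAA, the interferon gamma-activated site, and for GGGANTTCC, a form of the NF-kB site. Those letters occurred in 3.2%, 8.55%, 8.29% and 1.68% of 32817 promoters. The PU.1 letters were found in the Havcr2 window, and the interferon letters in those of Cd274 and Ctla4, while the other pair of motifs was found in none of the 8. The 250 bases before the start are shown for Cd274 and Havcr2, the ligand and the receptor of different roles in which a motif was found and whose UMIs could be tested. Capitals mark the motif. In Cd274 (chr19:29367188-29367437, plus strand) the match lies on the opposite strand and begins 76 bases before the start, and in Havcr2 (chr11:46454681-46454930, plus strand) it ends at the start. A match of letters is a description of sequence and says nothing of binding.
Cd274 promoter: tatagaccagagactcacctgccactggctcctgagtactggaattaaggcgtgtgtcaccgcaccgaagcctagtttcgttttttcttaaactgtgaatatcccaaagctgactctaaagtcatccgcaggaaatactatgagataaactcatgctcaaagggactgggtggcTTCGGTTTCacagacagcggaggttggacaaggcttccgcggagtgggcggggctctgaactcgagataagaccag
Havcr2 promoter: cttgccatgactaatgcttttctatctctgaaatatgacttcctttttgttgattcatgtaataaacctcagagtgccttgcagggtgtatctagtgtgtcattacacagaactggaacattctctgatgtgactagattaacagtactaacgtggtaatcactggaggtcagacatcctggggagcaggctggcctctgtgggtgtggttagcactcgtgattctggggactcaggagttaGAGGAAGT

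The first comparison asked whether checkpoint transcripts differed between tumor tissue and control brain, with the UMIs of all kept cells summed per mouse. The filter on low counts asked for 0.622 CPM in at least 4 mice, and 7 of the 10 genes passed it. Cd274, Cd86, Lag3, Havcr2 and Vsir lay above that level in every mouse, so that either group alone would have admitted them, and these 5 were higher in tumors by the quasi-likelihood test of edgeR with Benjamini-Hochberg adjustment over 17594 genes. Pdcd1 and Cd80 passed only through the tumors, with 0 and 2 controls above the level, so their edgeR values are not given and they were compared by exact permutation tests. The background is high, since 61.5% of all genes tested were called, 32.2% higher and 29.3% lower. The log2 fold changes of the 5 genes ran from 1.76 for Cd274 to 4.04 for Lag3, beside a median of 0.04 over all genes tested. In each of these 5 genes every tumor lay above every control, which held for 23.8% of all genes tested. The same order was seen for Pdcd1, which the tumors alone admitted. The 3 genes under the filter on low counts were Pdcd1lg2, Ctla4 and Tigit. In bulk sums of this kind, more cells of a type and more RNA per cell cannot be told apart.

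**Figure D1:**
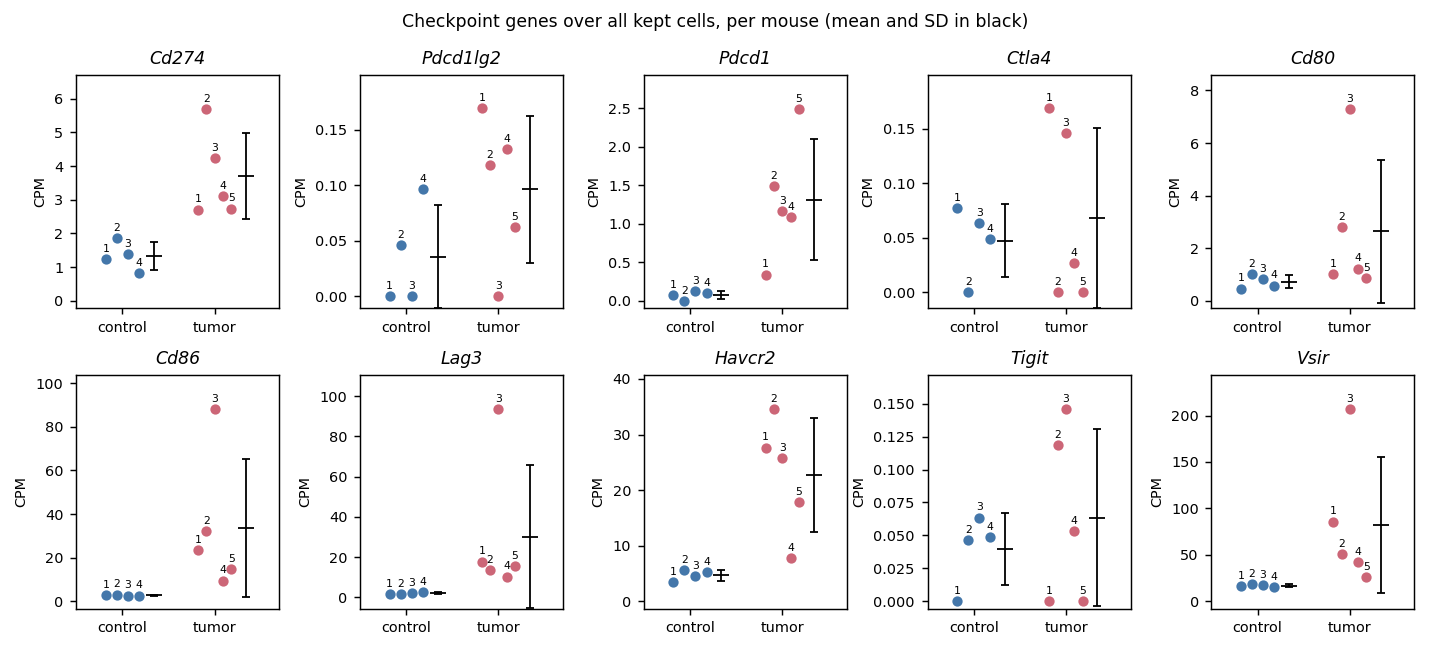
CPM of the checkpoint genes over all kept cells, 1 panel per gene with its own linear axis. Points are mice (4 controls, 5 tumors), and bars give the mean and SD. Tumor points lie above all control points for Cd274, Pdcd1, Cd86, Lag3, Havcr2 and Vsir, and tumor mouse 3 stands highest for Cd86, Lag3 and Vsir.

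PD-L1 transcripts were low in control brain and higher in tumors. Cd274 measured 1.24, 1.86, 1.40 and 0.823 CPM in control mice 1 to 4 and 2.71, 5.70, 4.23, 3.11 and 2.74 CPM in tumor mice 1 to 5. The groups did not overlap, and the log2 fold change was 1.76 ± 0.40 (SE; edgeR, adjusted p = 0.00451). These sums rest on 95 UMIs in controls and 302 in tumors. Cd274 (chr19:29367455-29388095, GRCm38) overlaps AC119228.1 on the other strand.

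PD-1 transcripts were close to absent from control brain. Pdcd1 (chr1:94038305-94052553) measured 0.0773, 0, 0.127 and 0.0968 CPM in controls, a total of 5 UMIs, and 0.339, 1.48, 1.17, 1.09 and 2.49 CPM in tumors, a total of 116 UMIs. Every tumor lay above every control, with the smallest level in tumor mouse 1, and the means were 0.0753 and 1.31 CPM (n = 4 and 5; two-sided exact permutation test, p = 0.0159). Its other ligand stayed at the limit of detection. Pdcd1lg2 (chr19:29410919-29471161) gave 3 UMIs over all control cells and 9 over all tumor cells, and the level per mouse did not differ past the threshold (0.0358 ± 0.0462 against 0.0966 ± 0.0664 CPM, mean ± SD, n = 4 and 5; two-sided exact permutation test, p = 0.175).

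The B7 pair differed in how far the groups separated. Cd86 (chr16:36603869-36666081) measured 2.78, 2.93, 2.48 and 2.47 CPM in controls and 23.6, 32.0, 88.1, 9.38 and 14.8 CPM in tumors. All tumors exceeded all controls, tumor mouse 3 most, and the log2 fold change was 3.81 ± 0.59 (SE; edgeR, adjusted p = 0.00071), or 3.21 without tumor mouse 3 (adjusted p = 0.000457). Cd80 (chr16:38455561-38496335) measured 0.464, 1.02, 0.825 and 0.581 CPM in controls and 1.02, 2.79, 7.29, 1.22 and 0.870 CPM in tumors, so that tumor mouse 5 lay below control mouse 2. Its means were 0.723 and 2.64 CPM (n = 4 and 5), and the exact permutation test passed with the smaller tail doubled (p = 0.0476) but not as the share of splits with a difference of at least that size (p = 0.175). Without tumor mouse 3 the first form gave p = 0.0857 (exact permutation test) and the tumor mean was 1.47 CPM. Ctla4 (chr1:60887000-60915832), the inhibitory receptor of both B7 proteins, gave 3 UMIs in each group, and its 0.0473 ± 0.0337 and 0.0684 ± 0.0826 CPM (mean ± SD, n = 4 and 5) did not differ past the threshold (exact permutation test, p = 0.619). It overlaps Rpl18-ps1 on the same strand.

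Lag3 and Havcr2 rose in tumors, whereas Tigit held too few UMIs for the edgeR test. Lag3 (chr6:124904361-124911705), a receptor for MHC class II and for Fgl1, measured 1.70, 1.58, 2.09 and 2.57 CPM in controls and 17.8, 13.5, 93.8, 10.3 and 15.6 CPM in tumors, a log2 fold change of 4.04 ± 0.67 (SE; edgeR, adjusted p = 0.000975). Havcr2 (chr11:46454935-46481255), a receptor for galectin-9, measured 3.40, 5.58, 4.44 and 5.28 CPM in controls and 27.6, 34.5, 25.8, 7.76 and 17.8 CPM in tumors, a log2 fold change of 2.51 ± 0.40 (SE; edgeR, adjusted p = 0.000807). For both, all tumors lay above all controls. Tumor mouse 3 was far above the other tumors for Lag3 and not for Havcr2, and without it the log2 fold change of Lag3 was 3.13 (edgeR, adjusted p = 0.000181). DESeq2 set Lag3 aside as holding an outlying count and gave it no adjusted p. Tigit (chr16:43648867-43664146), a receptor for nectin and PVR proteins, gave 3 UMIs in controls and 5 in tumors (exact permutation test, p = 0.476).

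Vsir, which encodes a checkpoint protein of myeloid cells that acts as both ligand and receptor, also rose. Vsir (chr10:60346851-60372684) measured 15.8, 18.6, 16.9 and 15.2 CPM in controls and 85.6, 50.8, 207, 42.3 and 25.5 CPM in tumors. No tumor overlapped the controls, which lay close together, and the log2 fold change was 2.45 ± 0.49 (SE; edgeR, adjusted p = 0.00248), or 1.88 without tumor mouse 3 (adjusted p = 0.00105). It lies over Cdh23 on the opposite strand.

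The cells that carried these transcripts were then sought among classes gated by marker genes. Phagocytes were cells with at least 7 of 12 markers (C1qa, C1qb, C1qc, Csf1r, Tyrobp, Fcer1g, Ctss, Aif1, Laptm5, Cd68, Fcgr3 and Trem2) and at least 0.8% of their UMIs on them. They numbered 133, 125, 97 and 120 in controls and 255, 609, 339, 381 and 278 in tumors. These were 2.25, 2.49, 2.43 and 2.58% of control cells and 10.8, 20.0, 21.5, 7.45 and 7.64% of tumor cells. The difference of 11.0 percentage points did not overlap between groups (exact permutation test, p = 0.0159, the smallest that 5 against 4 mice can give). Control libraries were rich in neurons, and with neurons left out of the denominator the shares were 9.06, 8.01, 9.41 and 13% against 14.3, 21.2, 24.4, 7.45 and 7.79%, a difference of 5.16 points that did not pass the test (exact permutation test, p = 0.333).

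Most checkpoint UMIs in tumors came from phagocytes. They held 92.5% of the tumor UMIs of Cd86, 89.9% of those of Havcr2, 86.2% of those of Pdcd1, 85.1% of those of Lag3 and 71.7% of those of Vsir. For Vsir tumor mouse 4 stood apart, where phagocytes held 527 of 1591 UMIs, cells of no gate 558 and neural progenitor-gated cells 322. In tumor mice 1, 2, 3 and 5 phagocytes held 461 of 505, 775 of 856, 1327 of 1417 and 335 of 410 Vsir UMIs. In controls the same cells held 69.8% of Cd86, 69.7% of Havcr2, 65.8% of Vsir and 50.7% of Lag3 UMIs. The PD-1 share of 20.0% in controls rests on 5 UMIs. UMIs of Cd274 and Cd80 were more spread. Phagocytes held 43.0% of Cd274 UMIs in tumors and 3.16% in controls, where neurons held 65.3%. Of the Cd80 UMIs they held 50.9% in tumors and 13.2% in controls. Neurons were the most numerous control cells, and their level of Cd274, at 0.596 to 1.50 CPM, was below that of free RNA, which held 0.636 to 2.00 CPM, in 3 of 4 controls. The share of free RNA in neurons was not estimated, so its part in their Cd274 UMIs was not tested.

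**Figure D2:**
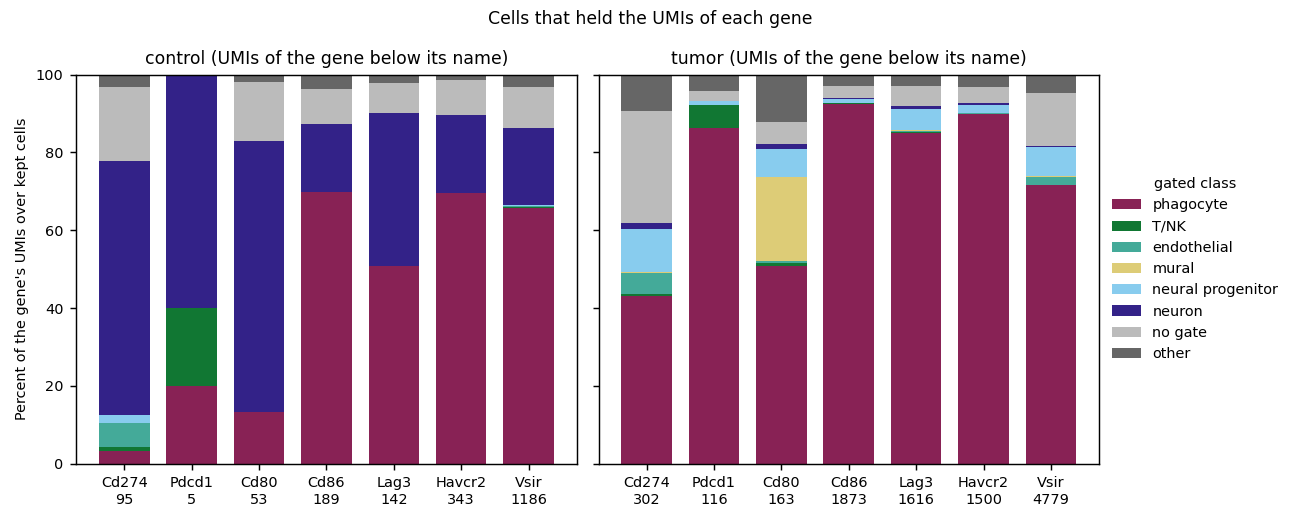
Share in percent of each checkpoint gene's UMIs held by each gated cell class, in controls and in tumors, for genes with at least 50 UMIs in tumors, with UMIs pooled over mice. Phagocytes hold 92.5% of Cd86 and 85.1% of Lag3 UMIs in tumors, whereas Cd80 and Cd274 are divided among several classes.

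The second comparison was made within phagocytes, with their UMIs summed per mouse. Of the 10 genes, 4 held enough UMIs to be tested, and 2 of these, Cd86 and Lag3, were higher in tumors, beside 18.2% of 8835 genes tested called higher, 21.1% lower and 39.3% in all. Every tumor lay above every control for these 2 genes, which held for 8.02% of the genes. Cd86 measured 80.5, 96.7, 69.9 and 80.8 CPM in controls and 179, 162, 299, 119 and 174 CPM in tumors, a log2 fold change of 1.59 ± 0.24 (SE; edgeR, adjusted p = 0.000317). Lag3 measured 49.8, 32.2, 49.5 and 53.9 CPM in controls and 134, 65.4, 311, 109 and 162 CPM in tumors, a log2 fold change of 2.15 ± 0.39 (SE; edgeR, adjusted p = 0.00118). Tumor mouse 3 was highest for both genes, and without it their log2 fold changes were still past the threshold.

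TIM-3 and VISTA transcripts did not differ past the threshold in these cells. Havcr2 measured 95.8, 159, 154 and 170 CPM in controls and 217, 168, 85.7, 99.1 and 203 CPM in tumors, so the tumors spread on both sides of the controls (log2 fold change 0.49 ± 0.29, SE; edgeR, adjusted p = 0.200). Without tumor mouse 3 its log2 fold change of 0.74 passed the threshold (adjusted p = 0.0260). Vsir measured 441, 520, 536 and 462 CPM in controls and 650, 244, 677, 221 and 267 CPM in tumors. Tumor mice 1 and 3 lay above and tumor mice 2, 4 and 5 below all controls, and the log2 fold change was 0.13 ± 0.31 (SE; edgeR, adjusted p = 0.779), negative without tumor mouse 1 or 3 and under 5 of the scalings tried.

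**Figure D3:**
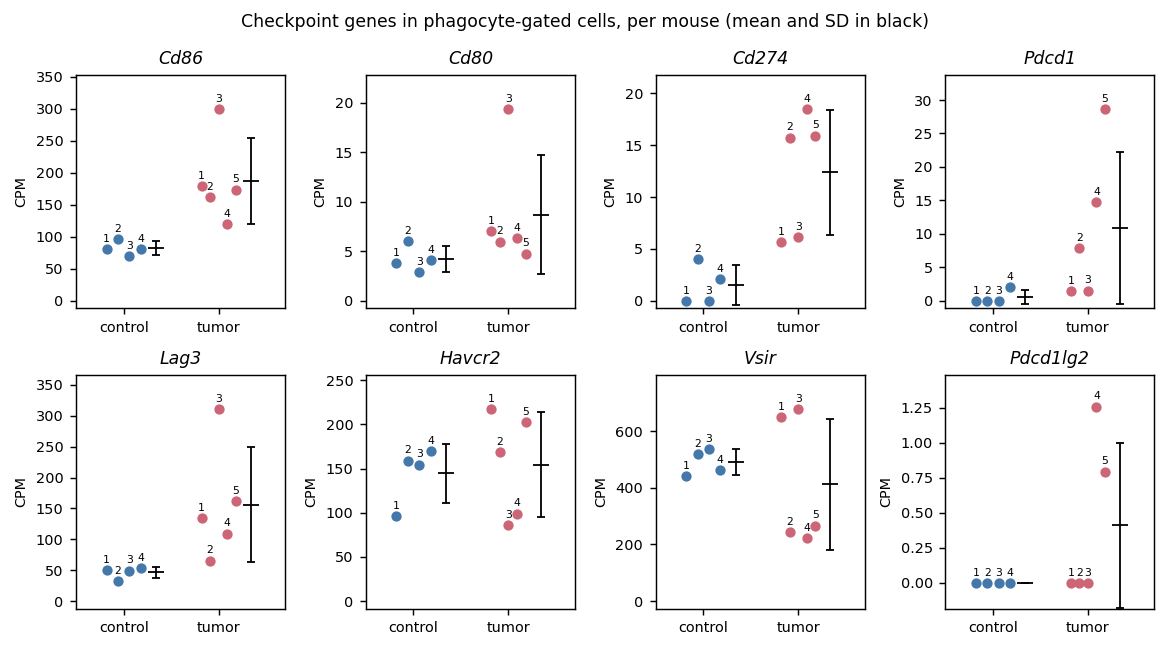
CPM of checkpoint genes in phagocyte-gated cells, 1 panel per gene with its own linear axis. Points are mice (4 controls, 5 tumors), and bars give the mean and SD. Cd86 and Lag3 are higher in each tumor than in any control, and Vsir in tumors splits to both sides of the controls.

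The sparser genes were compared by exact permutation tests over every split of the mice into 5 and 4. Cd274 in phagocytes measured 0, 4.03, 0 and 2.07 CPM in controls, from 3 UMIs in all, and 5.64, 15.7, 6.12, 18.5 and 15.9 CPM in tumors, from 130 UMIs. All tumors lay above all controls (two-sided exact permutation test, p = 0.0159). Pdcd1 measured 0 in control mice 1 to 3 and 2.07 CPM, a single UMI, in control mouse 4, against 1.41, 7.86, 1.53, 14.7 and 28.7 CPM in tumors (exact permutation test, p = 0.0476). Tumor mice 1 and 3 lay below control mouse 4. Cd80 measured 3.83, 6.04, 2.91 and 4.14 CPM in controls and 7.05, 5.98, 19.4, 6.30 and 4.78 CPM in tumors, with overlap (exact permutation test, p = 0.0476). Counted as the share of splits with a difference of at least that size, the exact permutation test gave p = 0.0714 for Pdcd1, 0.0873 for Cd80 and 0.0238 for Cd274. Pdcd1lg2 gave 4 UMIs and Ctla4 2 UMIs in tumor phagocytes and none in control phagocytes. Tigit gave none in 475 control or 1862 tumor phagocytes, which allows up to 0.632% and 0.161% of cells with a UMI.

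How large these differences were depended on the scaling, and so did the direction for Havcr2, Vsir, Cd86 and Cd80. Droplets take up transcripts from the suspension, called free RNA, and in each library it was read here from the 3000 smallest barcodes by UMIs. These held medians of 559 to 1338 UMIs, and whether they also hold small cells or debris was not tested. By neuron markers, free RNA was estimated at 53.1 to 64.1% of phagocyte UMIs in controls and 7.88 to 25.0% in tumors. The summed share of the 12 phagocyte markers in phagocytes was likewise 1.43 to 1.80% in controls and 3.92 to 4.70% in tumors, and that of 12 neuron markers 0.433 to 0.549% and 0.0121 to 0.155%. With library totals in place of TMM the median gene fell by 0.45 on the log2 scale, and the log2 fold changes were 1.17 for Cd86, 1.75 for Lag3, 0.06 for Havcr2 and −0.27 for Vsir. With free RNA subtracted and TMM kept they were 0.85, 1.39, −0.18 and −0.61, with Cd86 (edgeR, adjusted p = 0.0182) and Lag3 (adjusted p = 0.0121) still past the threshold. That fit called 1261 of 6866 genes higher and 788 lower. With free RNA subtracted and library totals the log2 fold changes were 0.15, 0.71, −0.89 and −1.26. Neither Cd86 (edgeR, adjusted p = 0.682) nor Lag3 (adjusted p = 0.155) passed there, and Havcr2 (adjusted p = 0.0404) and Vsir (adjusted p = 0.0100) were called lower, beside a median gene of −0.69. In this last fit 2443 of 6866 genes were called lower and 641 higher. Cd274, Pdcd1 and Cd80 did not pass the exact permutation test once free RNA was subtracted. Cd274 then measured 9.39 CPM in control mouse 2, above the 5.61 and 6.63 CPM of tumor mice 1 and 3 (exact permutation test, p = 0.0635), Pdcd1 gave p = 0.0952, and Cd80 was level at 9.93 ± 3.31 and 10.1 ± 6.24 CPM (mean ± SD, n = 4 and 5; exact permutation test, p = 0.984).

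Counts were also set against the phagocyte markers themselves. Vsir gave 30.7, 30.6, 29.8 and 28.2 UMIs per 1000 phagocyte-marker UMIs in controls and 16.6, 6.05, 15.5, 4.94 and 5.68 in tumors. Havcr2 gave 6.68, 9.38, 8.59 and 10.4 in controls and 5.54, 4.17, 1.96, 2.21 and 4.32 in tumors. On this scale every tumor lay below every control for both genes (exact permutation test, p = 0.0159 for each). In the edgeR fit on this scale 7729 of 8835 genes were called lower, and the median log2 fold change was −1.82. Those of Vsir (−1.62) and Havcr2 (−1.28) were less negative than that median. Per 1000 marker UMIs, Cd86 gave 5.03 ± 0.84 and 4.36 ± 1.55 (mean ± SD, n = 4 and 5; exact permutation test, p = 0.460), and Lag3 2.85 ± 0.71 and 3.60 ± 2.09 (exact permutation test, p = 0.698). The tumor mean of Lag3 rested on tumor mouse 3, the highest tumor, without which it was 2.73 and below that of controls. Cd80 gave 0.260 ± 0.079 and 0.203 ± 0.137 (exact permutation test, p = 0.476). Cd274 (p = 0.0635) and Pdcd1 (p = 0.0952) did not pass the exact permutation test on this scale. These markers themselves differ between the groups, so the scale is a ratio and not a level.

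**Figure D4:**
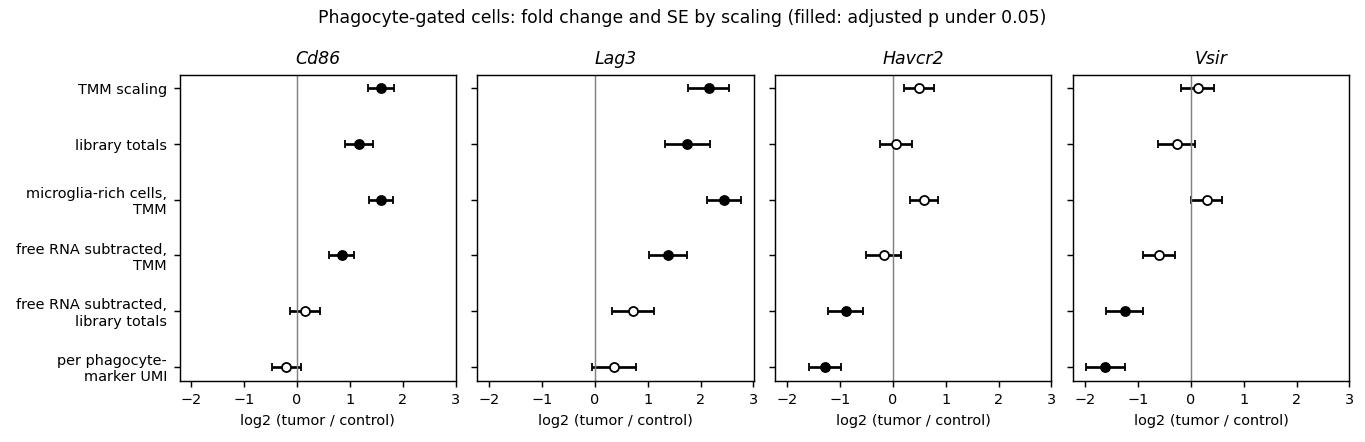
Log2 fold change, tumor against control, of Cd86, Lag3, Havcr2 and Vsir in phagocytes under each scaling. Points are edgeR estimates, filled where the adjusted p is under 0.05, bars give their SE, and a line marks 0. Lag3 lies above 0 throughout, Cd86 reaches −0.21 per phagocyte-marker UMI, and Havcr2 and Vsir lie on both sides of 0.

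Shares of phagocytes with a UMI gave a view less tied to sums. For Cd86 they were 15.8, 30.4, 19.6 and 29.2% of cells in controls and 37.6, 50.1, 56.9, 49.1 and 48.9% in tumors (exact permutation test, p = 0.0159). Lag3 was seen in 8.27, 12, 14.4 and 20.0% of control phagocytes and 22.4, 23.5, 53.1, 37.8 and 42.8% of tumor phagocytes (p = 0.0159, exact permutation test). In neurons, set beside them for comparison, the mean shares were 0.227% for Cd86 and 0.377% for Lag3 in controls. They were 0.747% and 0.884% over the 4 tumor mice with neurons, since tumor mouse 4 had none. Whether neurons lack both genes was not tested. The tumor value for Lag3 came mostly from tumor mouse 3 and was 0.115% without it. Median UMIs per cell were 1917 to 3940 in control phagocytes, 2436 to 6097 in tumor phagocytes, 2128 to 4241 in control neurons and 1817 to 2534 in tumor neurons. Thinned to 1000 UMIs per cell, which left out no cell, the shares were 8.12 ± 2.00% and 16.3 ± 2.20% for Cd86 (mean ± SD, n = 4 and 5; exact permutation test, p = 0.0159) and 5.95 ± 1.25% and 13.1 ± 5.63% for Lag3 (exact permutation test, p = 0.0317). Thinning does not remove free RNA.

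Cd274 UMIs were found in few phagocytes. At 130 UMIs over 1862 tumor phagocytes, such shares cannot tell few carrying cells from a low level in many. Cd274 had a UMI in 0, 1.60, 0 and 0.833% of control phagocytes and 1.57, 7.06, 2.65, 9.71 and 6.12% of tumor phagocytes (exact permutation test, p = 0.0317), beside means of 0.436% and 0.498% in neurons of 4 control and 4 tumor mice, the latter 0.292% without tumor mouse 2. Control mouse 2 lay just above tumor mouse 1. For Pdcd1 the shares were 0, 0, 0 and 0.833% against 0.392, 3.28, 0.295, 7.87 and 10.4% and did not pass the test (exact permutation test, p = 0.0952). Havcr2 (37.3 ± 13.5% and 45.1 ± 8.71%, p = 0.397) and Vsir (75.5 ± 9.74% and 69.4 ± 6.57%, p = 0.302) did not differ past the threshold in exact permutation tests of 4 against 5 mice. Cd80 had a UMI in 1.46 ± 0.73% and 3.96 ± 3.02% (exact permutation test, p = 0.0635), and after thinning its tumor mean was the lower by 0.126 points.

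UMIs of several checkpoint genes were found in the same tumor phagocytes. Of all 1862 cells 49.2% held a Cd86 UMI and 34.5% a Lag3 UMI, the rates against which the following counts are read. UMIs of both genes were held by 389 cells, which was 42.4% of the cells with Cd86 and 60.5% of those with Lag3. Of 110 cells with Cd274, 66 also held Cd86 and 49 Lag3, and of 81 cells with Pdcd1, 59 held Cd86 and 43 Lag3. Cells with both Cd274 and Pdcd1 numbered 7. Deeper cells show more genes of any kind, so these counts are descriptions.

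Tumor phagocytes were divided further by microglial and macrophage markers, since TIM-3 and VISTA are known from microglia. Microglia-rich cells, with at least 6 of 9 microglial markers (such as P2ry12, Tmem119 and Sall1) and at most 2 of 9 macrophage markers, numbered 172, 175, 196, 145 and 209 in tumor mice 1 to 5. Macrophage-rich cells, with at least 3 macrophage markers (such as Ms4a7, Mrc1 and Ccr2) whatever their microglial markers, numbered 23, 332, 70, 187 and 11. Macrophage-rich cells were deeper, with medians of 3910 to 9116 UMIs per cell against 2610 to 6169. Of control phagocytes 96, 117, 87 and 113 were microglia-rich, and 3 to 8 per mouse were macrophage-rich. The macrophage marker list held 0.0317 to 0.0973% of phagocyte UMIs in controls and 0.182 to 1.01% in tumors, highest in tumor mouse 2.

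Lag3 and Vsir were higher in the microglia-rich cells of each tumor. Lag3 measured 154, 137, 380, 189 and 174 CPM in microglia-rich cells and 39.5, 20.4, 204, 48.8 and 125 CPM in macrophage-rich cells of the same mice. Vsir measured 765, 343, 785, 316 and 288 CPM against 277, 195, 564, 160 and 125 CPM. Both were higher in 5 of 5 mice (exact permutation test by sign flips, p = 0.0625 for each, the smallest that 5 mice can give). Some macrophage-rich levels rest on few UMIs, 4 of Lag3 in tumor mouse 1, and 6 of Lag3 and 6 of Vsir in tumor mouse 5. Havcr2 was higher in 4 of 5 mice (185 ± 63.4 against 115 ± 84.4 CPM, exact permutation test, p = 0.125) and lower only in tumor mouse 5, which had 11 macrophage-rich cells.

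Cd86 showed no such order. It measured 195, 187, 306, 142 and 170 CPM in microglia-rich cells and 217, 131, 338, 110 and 187 CPM in macrophage-rich cells, higher in the first in 2 of 5 mice (exact permutation test, p = 0.875). The UMIs of Pdcd1 were 78 in microglia-rich and 11 in macrophage-rich cells, its level was higher in the first in 4 of 5 mice (17.0 ± 14.9 against 6.17 ± 8.50 CPM, exact permutation test, p = 0.188), and in tumor mouse 3 the microglia-rich cells held none. Its macrophage-rich mean rests largely on tumor mouse 5, at 20.8 CPM from 1 UMI, beside 0 to 4.88 CPM in the other tumors. For Cd274 the UMIs were 54 and 52, and the level was higher in microglia-rich cells in 3 of 5 mice (exact permutation test, p = 0.625).

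**Figure D5:**
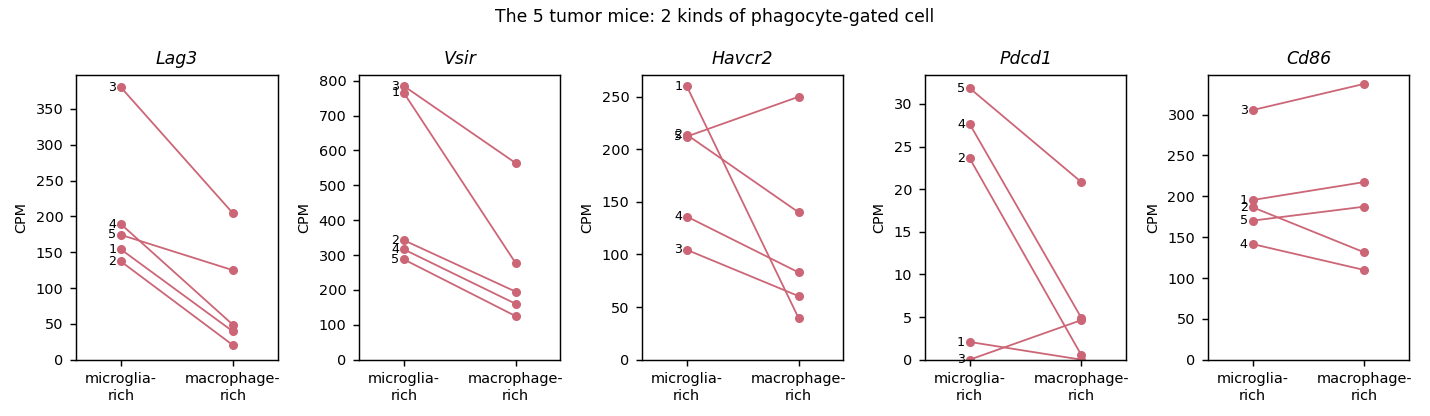
CPM of checkpoint genes in microglia-rich and macrophage-rich cells of the same tumor mouse, 1 panel per gene. Lines join the cells of 1 mouse. The line falls from microglia-rich to macrophage-rich cells in 5 of 5 mice for Lag3 and Vsir, and in 2 of 5 for Cd86.

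Within microglia-rich cells alone, the difference between tumors and controls was of similar size for Cd86 and Lag3. The log2 fold change was 1.59 for Cd86 and 2.44 for Lag3, and 0.59 for Havcr2 and 0.30 for Vsir, which did not pass. Of 7267 genes tested in these cells 1303 were called higher and 1584 lower. Free RNA was not subtracted from these sums. Under library totals Cd86 gave 1.22, Lag3 2.06, Havcr2 0.21 and Vsir −0.05. Cd86 measured 84.0 ± 4.82 CPM in controls and 200 ± 62.5 CPM in tumors (mean ± SD, n = 4 and 5; exact permutation test, p = 0.0159), and Lag3 50.0 ± 11.5 and 207 ± 98.8 CPM (exact permutation test, p = 0.0159). The levels of Vsir were 507 ± 66.2 and 499 ± 253 CPM (exact permutation test, p = 0.952). Of the sparser genes, Pdcd1 (p = 0.143) and Cd80 (p = 0.0635) did not pass the exact permutation test in microglia-rich cells. Cd274 gave p = 0.0476 (exact permutation test), with tumor mice 1 and 3, at 2.08 and 3.42 CPM, below control mouse 2 at 4.31 CPM.

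Outside phagocytes, CD80 stood out in mural cells, the pericytes and smooth muscle of vessel walls. Of 159 mural cells in tumors, 28 held a Cd80 UMI, 17.6% with a 95% exact interval of 12 to 24.4%, and they held 35 UMIs. These cells came from tumor mice 2, 3 and 4, with 10, 4 and 14 cells, and none from tumor mice 1 and 5, which had 10 and 16 mural cells. The level was 40.1, 37.8 and 54.4 CPM in those 3 mice, whose free RNA held 2.08, 0.594 and 2.91 CPM of Cd80. Controls had 3 mural cells, so there was nothing to compare. In the same mural cells Cd86 had no UMI, and Cd80 was found in 1 of 584 endothelial cells. Intervals of this kind cover counting error only.

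In endothelial cells, which line the vessels, the level of Vsir lay on both sides of that of free RNA. In tumors 86 of 584 endothelial cells held a Vsir UMI, 14.7% with a 95% exact interval of 12 to 17.9%, against 5 of 65 in controls. Their level was 22.2, 11.6, 44.7, 44.1 and 25.9 CPM in tumor mice 1 to 5, and free RNA held 12.5, 15.1, 73.7, 50.6 and 16 CPM of Vsir, more than the cells in tumor mice 2, 3 and 4. The share of free RNA in endothelial cells was not estimated, so its part in these UMIs was not tested. Cd274 was found in 15 of 584 tumor and 6 of 65 control endothelial cells. With at most 21 endothelial cells per control mouse, the groups were not compared. Neural progenitor-gated cells, the class that held up to 39.8% of the cells of a tumor mouse, gave 33 Cd274 UMIs and levels of 0 to 3.86 CPM in the 4 tumor mice with at least 50 such cells. Their Vsir levels ran from 1.94 to 25.5 CPM and those of Lag3 from 1.93 to 5.47 CPM, while free RNA of these mice held 0.553 to 4.07 CPM of Cd274, 15.1 to 73.7 CPM of Vsir and 5.53 to 41.6 CPM of Lag3. Vsir and Lag3 lay below free RNA in each of these mice, and Cd274 lay below it in tumor mice 3 and 4 and above it in tumor mice 2 and 5. The share of free RNA in progenitor-gated cells was not estimated either, so a level below it does not tell where the UMIs came from. In astrocyte-gated and neuron-gated cells, Vsir was the only checkpoint gene with enough UMIs to test. It did not differ past the threshold in either (edgeR, adjusted p = 0.748 and 0.961), and 6.9% and 15.7% of all genes tested in those cells were called.

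Lymphocytes were rare, which bears on the receptors best known from them. T and NK cells numbered 25 in controls and 32 in tumors, with none in tumor mouse 5, and none held a UMI of Foxp3, the regulatory T cell factor. In the 32 tumor cells Pdcd1 gave 7 UMIs in 4 cells and Pdcd1lg2 4 UMIs in 4 cells. Ctla4 and Havcr2 gave none, Tigit 1 and Lag3 2. A count of 0 in 25 and 32 cells allows up to 12% and 9.38% of cells with a captured UMI, which is not a limit on cells that carry the transcript. The groups were not compared in so few cells.

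Genes that act with the checkpoint genes were read from 4 lists. Counts are given over genes that lay above the level of the filter in at least 4 mice of each group. Genes that 1 group alone admitted are described by their values without a test, since their admission favors a difference. Of 13 binding partners of the 10 proteins, 9 did so over all kept cells, of which 4 were higher, 0 lower and 5 did not pass, beside 32.2% of all genes tested called higher. The 4 were Lgals9, which encodes the TIM-3 ligand galectin-9, with a log2 fold change of 5.15 (4.43 ± 0.56 against 123 ± 68.8 CPM), and Lgals3, which encodes galectin-3, a ligand of LAG-3, with 3.52. The others were Selplg, a partner of VISTA, with 1.93, and Nectin2, a ligand of TIGIT, with 1.70. The groups overlapped for Selplg, at 22.6 to 28.0 CPM in controls and 21.2 to 211 CPM in tumors (exact permutation test, p = 0.0794). Adjusted p-values of these 4 ran from 0.000252 to 0.00801 (edgeR), and the median log2 fold change of the 9 was 0.95, beside 0.04 for all genes. Fgl1, another LAG-3 ligand, passed the filter only through the tumors and measured 0.501 ± 0.263 and 3.54 ± 3.27 CPM (mean ± SD, n = 4 and 5). Cd226, an activating receptor that shares ligands with TIGIT, passed the filter only through the controls. It measured 2.16 to 2.84 CPM in controls and 0 to 1.75 CPM in tumors, so every tumor lay below every control. The TIGIT ligand Pvr (−0.16) and the VISTA ligand Igsf11 (−0.41) did not pass.

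Fewer genes of other costimulatory families were tested, and 32.2% of all genes tested were higher in this comparison. Of the other B7 and CD28 genes 2, Icosl and Cd276, were above the level in both groups. Icosl, the ligand of ICOS, was higher with a log2 fold change of 2.88 (edgeR, adjusted p = 0.00118), and Cd276 did not pass with −0.39. By CPM every tumor lay below every control for Cd276, at 4.71 to 9.04 against 9.68 to 10.8 CPM (exact permutation test, p = 0.0159). Btla passed the filter only through the controls, with means of 1.89 CPM in controls and 0.701 CPM in tumors. Of the TNF superfamily Tnfrsf4 and Cd27 were above the level in both groups and did not pass. Tnfrsf18 passed the filter only through the controls, with means of 1.12 CPM in controls and 0.944 CPM in tumors. Cd40, an activating receptor of antigen-presenting cells, passed the filter only through the tumors, with 0.412 ± 0.206 and 4.51 ± 3.98 CPM (mean ± SD, n = 4 and 5). So did Tnfsf9, the ligand of 4-1BB, with 0.392 ± 0.189 and 3.27 ± 2.63 CPM. Of the phagocyte checkpoints Cd47, Sirpa, Cd200 and Cd200r1, none passed over all kept cells, and their median log2 fold change was 0.05.

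In phagocytes fewer of those genes could be tested, and 18.2% of all genes tested there were higher and 21.1% lower. Of the 3 binding partners above the level of 14.1 CPM in both groups 1 was higher, Lgals9 with a log2 fold change of 1.46 (72.8 ± 7.63 against 144 ± 35.1 CPM). Selplg, which edgeR called higher over all kept cells, had −0.34 and did not pass (edgeR, adjusted p = 0.367). Lgals3 and Icosl passed the filter only through the tumors. Lgals3 held 4 UMIs in control phagocytes and 1029 in tumor phagocytes, with 2.06 ± 2.93 and 91.7 ± 64.8 CPM (mean ± SD, n = 4 and 5). Icosl measured 16.3 ± 6.39 and 39.8 ± 10.8 CPM. Cd200, a ligand that neurons carry and that restrains phagocytes, passed the filter only through the controls, with 36.7 ± 14.7 and 8.40 ± 9.11 CPM. The share of neuron markers was also lower in tumor phagocytes, as given above. The part of free RNA in the Cd200 value was not tested.

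Genes with the most similar pattern were sought over 40 sums of 1 mouse and 1 class, from 9 classes and 9 mice, among 18597 genes, by Pearson's r of log2(CPM + 10). The points share libraries, depth and the same division into phagocytes and other cells. Nearest to Cd86 were C3ar1 (r = 0.992), Fcgr2b (0.990) and Pik3ap1 (0.985), and nearest to Lag3 were Cd86 (0.968), Cd68 (0.967) and C3ar1 (0.967). For Havcr2 they were Gm26740 (0.983), Slamf6 (0.983) and P2ry6 (0.982), and for Vsir Inpp5d (0.958), Abi3 (0.957) and Nfam1 (0.956). Pdcd1 went with Cd72 (0.932), Olr1 (0.930) and Il1rn (0.924). Values were lower for Cd80, with Ripk3 (0.869), Il6 (0.865) and Ggt5 (0.863), and for Cd274, with AB124611 (0.798), Tnf (0.787) and Cd69 (0.772).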

How the data were processed

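UMI counts of 5 tumor and 4 control libraries were analysed. A figure legend of the study counts 4 tumor mice, and all 5 libraries labelled as tumors were used. The authors made the deposited counts with Cell Ranger (version 7 in the submitters' processing notes) on mm10, and the deposited values are whole, not normalized, UMI counts of each barcode. Cell labels of the authors were not used here. The list of control mouse 4 names 32287 of 32289 features and 80865 of 80887 barcodes, so its barcodes were used by column. Its mouse genes stand in the order of the other lists and were read by that order, and over genes tested its log2(CPM + 1) correlated with those of the other controls at 0.992 to 0.995. Columns of other samples numbered 0.

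The 10000 barcodes with most UMIs per library were considered. Barcodes with 200 to 6000 genes were kept, the component with more mitochondrial RNA of a Gaussian mixture was removed (scikit-learn 1.9.0), and doublets were removed by Scrublet in Scanpy 1.11.5 at 0.8% per 1000 barcodes. The mixture cut at unlike levels. Removed barcodes averaged 16.1 to 17.3% mitochondrial RNA in controls and 22.4, 16.2, 12.4, 3.68 and 4.84% in tumor mice 1 to 5. Kept control cells averaged 7.58 to 8.72%, more than the barcodes removed from tumor mice 4 and 5. Cells were gated by marker lists and not clustered, and a cell that passed more than 1 gate was set apart. UMIs were summed per mouse and fitted with edgeR 4.0.16, whose quasi-likelihood test was used in R 4.3.3 (TMM, filterByExpr, Benjamini-Hochberg over all genes tested, threshold 0.05). Sparse genes and shares were tested by two-sided exact permutation over every split of the mice into 5 and 4, with the smaller tail doubled and without adjustment for the 10 genes. Tests within tumors flipped signs over 5 mice. Intervals are exact Clopper-Pearson intervals at 95%, and a count of 0 was given a limit of 3 counts. Free RNA was read from the 3000 barcodes with fewest UMIs. The edgeR and DESeq2 1.42.0 steps were tested on simulated data, where DESeq2 called more unchanged genes than edgeR.

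The genes and lists were chosen with earlier results of these data known. The gates, the microglia-rich and macrophage-rich rule, and the alternatives with free RNA, microglia-rich cells and marker UMIs, the limit to genes above the filter in each group, and the test by size of difference were chosen after seeing the data. Named are the 10 genes, members of the 4 lists past the threshold with a few others for contrast, and the 3 genes of most similar pattern. Alternatives planned were DESeq2, limma voom (3.58.1), size factors, library totals, no filter, the replicate number as a block, each mouse left out, at least 500 genes, doublets kept, a mitochondrial limit of 10%, all barcodes admitted, a stricter gate and thinning to 1000 UMIs. Every pair of libraries of 1 group differed beyond sampling noise.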

Additional observations from a re-analysis of the deposited data

Results flagged for a closer look

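In 38 groups of 4 or 5 mice, 4 held 1 mouse far from the others by Dixon's criterion, where chance gives about 1 in 20 groups. Over all kept cells tumor mouse 3 stood apart for Cd86, at 88.1 CPM with the next tumor at 32.0, and for Lag3, at 93.8 CPM with the next at 17.8. In phagocytes tumor mouse 3 stood apart for Cd80, at 19.4 CPM with the next at 7.05. The same library gave the highest share of phagocytes and the fewest cells, and its free RNA held 19.6 CPM of Cd86 and 41.6 CPM of Lag3. The part of these in its levels was not tested. Control mouse 4 stood apart for Pdcd1 in phagocytes, at 2.07 CPM from 1 UMI with 0 in the other controls.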

How the results depend on the processing

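Over all kept cells the count of genes called ran from 8851 to 12232 over 20 alternatives and that of the 10 checkpoint genes from 6 to 7, with the 6 under DESeq2 due to Lag3. The 7 include Pdcd1 and Cd80, which the tumors alone admitted, and 5 are left without them. Leaving out each mouse gave 9046 to 11988 genes and 6 to 7 checkpoint genes. The replicate block gave 8851 genes and 7 checkpoint genes, and in phagocytes 3213 genes and 2 checkpoint genes, and changed none of their calls. Same-numbered mice did not deviate together over the whole profile (correlations −0.007 to 0.050). The labels do not say whether the numbers pair the mice, and such a correlation cannot exclude a small shared effect. In exact tests of CPM over all kept cells 7 of the 10 genes passed, and 6 to 7 under alternatives. How many of all genes would pass this test was not counted. Every tumor lay above every control for 23.8% of the genes tested by edgeR, so 7 is not read as a result about checkpoint genes. Cd80 was lost in 9 of 14 alternatives and Pdcd1 under a mitochondrial limit of 10% (p = 0.0794, exact permutation test). Counted as the share of splits with a difference of at least that size, Vsir (exact permutation test, p = 0.0635) and Cd80 (p = 0.175) did not pass. The difference of Ctla4 was −0.013 CPM with at least 500 genes per cell and ran from −0.0042, without tumor mouse 1, to 0.0382 with each mouse left out. Under library totals the median gene over all kept cells was −0.19, and the 7 calls did not change.

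In phagocytes 3468 genes were called, 1606 higher and 1862 lower, and under library totals 824 higher and 3096 lower. The count was 2049 with free RNA subtracted and 7841 per phagocyte-marker UMI, 7729 of them lower, where the median gene was −1.82. Leaving out each mouse gave 2922 to 3898 genes and 2 to 3 checkpoint genes. The third was Havcr2 without tumor mouse 3. Without any 1 of the controls it was Cd274, which the tumors alone admitted, with controls at 0 to 4.03 CPM, so that call is not read as a result. With each mouse left out the log2 fold change of Vsir ran from −0.043, without tumor mouse 1, to 0.25, with −0.028 without tumor mouse 3. Per phagocyte-marker UMI, Cd86 was −0.21 and Lag3 0.36, neither past the threshold, and Havcr2 was −1.28 and Vsir −1.62, both called lower. Havcr2 was −0.18 with free RNA subtracted and −0.89 with library totals as well. Vsir was −0.27 under library totals, −0.051 in microglia-rich cells under library totals, −0.61 with free RNA subtracted and −1.26 with library totals as well. The cause of these changes was not tested. The difference in the share of phagocytes was 5.16 points with neurons left out of the denominator (p = 0.333, exact permutation test) and 9.02 to 12.5 points with each mouse left out. After thinning the difference in the share of cells with Cd80 was −0.126 points. Sparse UMIs limit Pdcd1lg2, Ctla4 and Tigit in all cells.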
